A study of Drosophila melanogaster with 22 samples.

Results

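The cytochrome P450 genes of Drosophila were described in S2 cells, an established embryonic line with features of blood cells, after treatment with double-stranded RNA (dsRNA) against components of the RNA exosome. Members were the probe sets with 1 gene symbol that begins with Cyp followed by a digit. This gave 85 probe sets for 83 genes, of 13647 probe sets for 11982 genes with 1 symbol on the array. The rule also took Cyp1 and Cyp40, which encode cyclophilins (peptidyl-prolyl isomerases) and not P450s, and these were set aside. The P450s were then 83 probe sets for 81 genes. Of these, 44 probe sets for 43 genes had a mean log2 signal over the 22 arrays at or above 4.67, the median over all probe sets that were not controls. This median is called the signal line here, and only probe sets at or above it were tested. Of all probe sets with 1 symbol, 7825 of 13647 lay at or above it, so the share of the P450s was near the background.

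P450s are heme enzymes that insert an oxygen atom into small lipophilic molecules. Microsomal P450s take electrons from NADPH-cytochrome P450 reductase, with cytochrome b5 as a partner, and mitochondrial P450s take them from a ferredoxin. Insect P450s are sorted by descent into the CYP2, CYP3, CYP4 and mitochondrial clans: the CYP3 clan and the Cyp12 genes of the mitochondrial clan are known for the breakdown of plant toxins and insecticides, the CYP4 clan for fatty acid and hydrocarbon metabolism, and members of the CYP2 and mitochondrial clans for making and inactivating the moulting hormone ecdysone. Many P450 genes lie in tandem runs of related copies.

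The study measured mRNA in cells given dsRNA against 1 of 9 exosome subunits or partners, or against GFP, a jellyfish sequence that S2 cells lack. It compared the mRNAs affected by depletion of different exosome subunits. The cells labelled as depleted were Csl4, Rrp4 and Rrp40 (cap subunits), Mtr3, Rrp46 and Ski6 (ring subunits), Dis3 and Rrp6 (exonucleases) and Rrp47 (the partner of Rrp6), with 4 arrays for Rrp4 and 2 for each of the others, against 2 arrays for GFP. All cells had dsRNA at 30 µg/ml on days 0, 1 and 3 and were lysed on day 5, and 6 µg of total RNA was labelled per array. By their titles, arrays of a depletion are biological replicates and the GFP arrays are numbered controls. Whether any were separate cultures is not given in the sources used here, so p-values measure only the spread between these arrays. The 9 comparisons with GFP share the same 2 GFP arrays. In a pool of cells, fewer cells that hold an mRNA and less of it per cell cannot be told apart.

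Several targeted genes went against their labels, so groups are named by label throughout. Of the 9 targeted genes, 2 were lower in their own arrays than in GFP arrays (Dis3 by a log2 fold change of -1.17 and Rrp6 by -0.91), 4 were higher (Csl4 2.68, Ski6 2.4, Rrp40 1.83 and Rrp47 1.71) and 3 did not pass the test. Signal of the Rrp4 gene was 9.42 and 10.79 on Rrp4 arrays 1 and 2 and 7.11 and 7.52 on Rrp4 arrays 3 and 4, against 9.45 and 9.18 on the GFP arrays. The 4 Rrp4 arrays also stood apart in scale and in added controls. Their deposited values had a trimmed mean of 500, against 125.9 to 345.6 on the other 18 arrays, and the log2 signal of added poly-A transcripts, less that of the hybridization controls, was -5.14 to -3.03, against 0.03 to 1.23. For Rrp4, group and scaling batch cannot be told apart. Of 8 blood cell markers, 6 lay above the signal line (Hml, Pxn, eater, srp, He and Glt). Over all depletions, Pxn (2.97), eater (1.74), He (0.91) and Glt (3.82) were higher and Hml (-1.57) was lower, in log2 fold change. The summed linear signal of the list was 1790 to 14800 on depletion arrays and 6260 to 11700 on GFP arrays. Of the fat body and midgut markers, 1 each (Lsp2 and betaTry) lay above the line and neither was called. Both Malpighian tubule markers lay above it, with Irk3 lower (-1.40) and Irk2 not called, as did 2 neuron markers (elav and brp) and 1 muscle marker (Prm), none of them called, and the germline marker bam, which was higher (2.27). The part of these shifts in the P450 results was not tested. Arrays 1 and 2 of a group differed by a median of 0.435 log2 units in Rrp6, 0.413 in Dis3 and 0.343 in Csl4, with 0.123 to 0.23 in the other depletions, against 0.305 in GFP.

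Of the 44 P450 probe sets above the line, 22 were above it on every array. The other 39, for 39 genes, had means of 1.75 to 4.48. The nearest members on either side of the line were Cyp6w1 at 4.72 and Cyp6a19 at 4.48. By group, the number of P450 probe sets with every array above the line was 35 in Csl4, 36 in Rrp4, 35 in Rrp40, 40 in Mtr3, 37 in Rrp46, 37 in Ski6, 38 in Dis3, 36 in Rrp6 and 41 in Rrp47, against 33 in GFP. The groups thus had similar numbers, and Rrp4 had 4 arrays to meet the condition on. The same counts by group were not made over all probe sets. By clan, 24 of 37 probe sets of the CYP3 clan lay above the line, 12 of 32 of the CYP4 clan, 6 of 9 of the mitochondrial clan and 2 of 5 of the CYP2 clan.

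Among the 39 members below the line, 11 had every array of at least 1 group above it. Cyp49a1 did so in Dis3, Rrp47 and GFP, Cyp6a19 in Rrp40 and Rrp6, and Cyp4d20 in Mtr3 and Ski6. The other 8 did so in 1 group each: Cyp313a1 and Cyp301a1, a gene of cuticle formation, in Dis3, Cyp4d8 and Cyp318a1 in Csl4, Cyp308a1 and Cyp4e3 in Rrp47, Cyp4g15 in Rrp40, and Cyp6a2, a gene linked to DDT resistance, in Mtr3. The brightest of the 28 others were Cyp12b2 (mean 4.40), Cyp6a21 (3.79) and Cyp316a1 (3.74). Of the 39, 30 were at the floor of the values on at least 1 array, and 6 on at least 11 arrays. Cyp6g1, known for insecticide resistance and named here after its values were seen, averaged 3.25 and was above the line on 2 arrays.

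**Figure D1:**
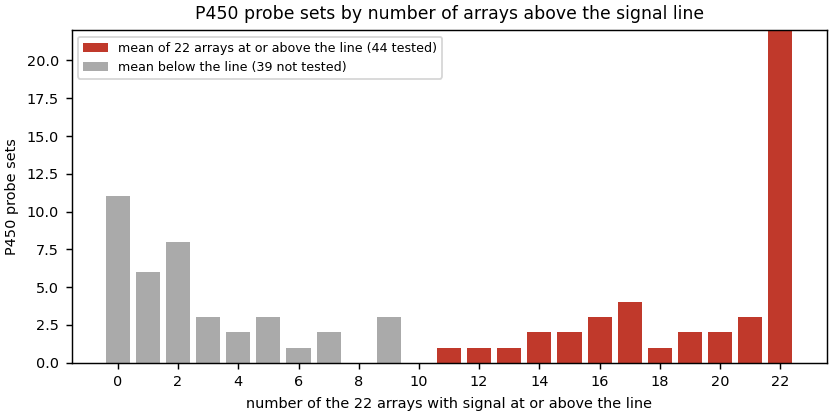
Number of P450 probe sets (vertical axis) by the number of the 22 arrays on which their log2 signal was at or above the signal line of 4.67 (horizontal axis). Tested probe sets are red and those with a mean below the line are grey; 22 probe sets were above the line on every array and 11 on none.

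Over all depletions against GFP, 7 of the 44 probe sets were higher, 12 were lower and 25 did not pass the test (limma, Benjamini-Hochberg adjusted p under 0.05 over 9385 probe sets). These are 15.9% higher and 27.3% lower, beside 11.6% higher and 10.3% lower over all probe sets tested. The share of higher calls was near the background and the share of lower calls was above it. The median log2 fold change was -0.10 over the P450s and -0.03 over all probe sets tested. The split depended on scaling: with the values as deposited, 13 were higher and 6 lower, while the median over all probe sets moved to 0.46 and 43.6% of them were called higher and 2.14% lower. All directions below are relative to the bulk of genes on the arrays. GFP array 1 also bore on the higher calls: without it 3 P450s were higher and 10 lower, and without GFP array 2 these were 5 and 9. Of the 44 tested probe sets, none was higher on all 20 depletion arrays than on both GFP arrays, and 3 were lower on all 20. How many of all probe sets tested did so was not counted, so these numbers are not read as a trait of the P450s. Below the line, Cyp6a16, named here after its values were seen, was also lower on all 20 (1.69 to 3.34, against 3.48 and 3.69 in GFP), and was not tested.

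**Figure D2:**
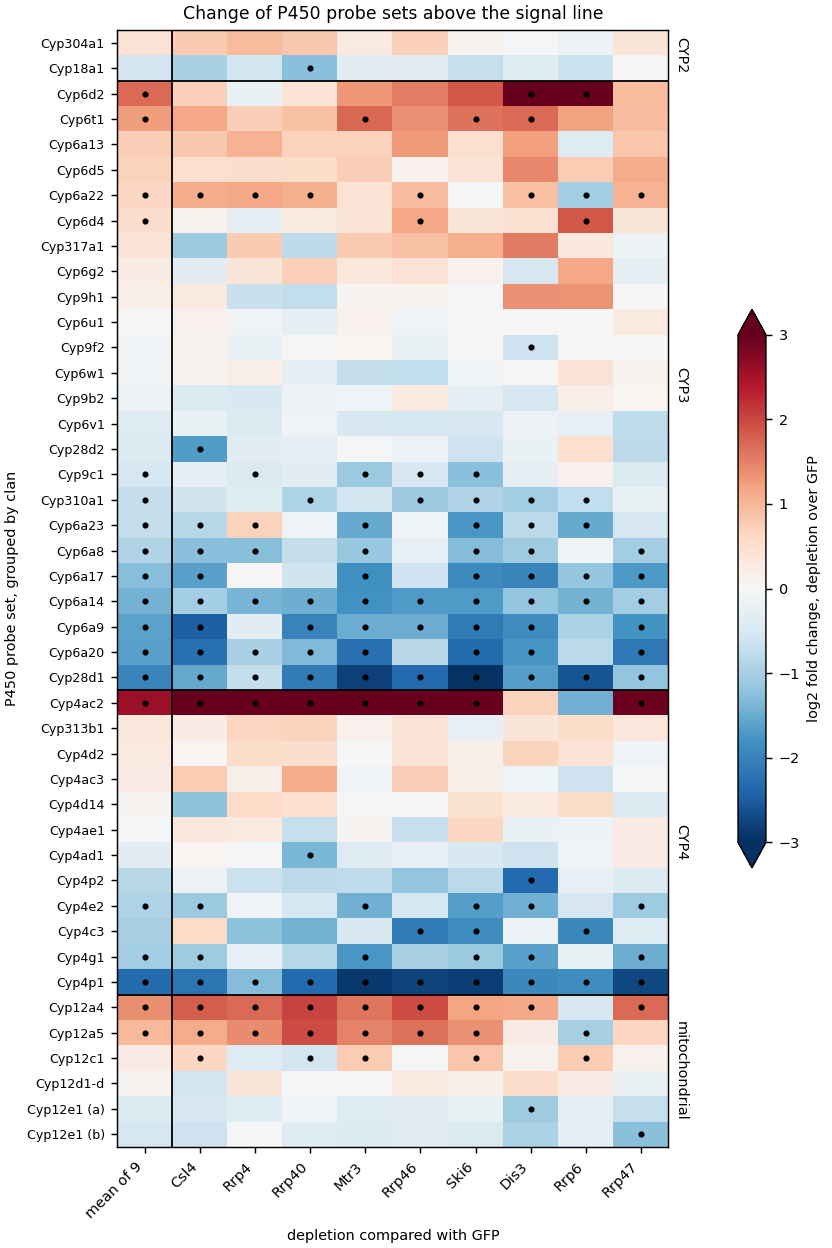
Log2 fold change of the 44 tested P450 probe sets (rows, grouped by clan and ordered by the mean change) for the mean of the 9 depletions and for each depletion over GFP (columns). Red is higher and blue lower in the depletion, colours saturate at 3 in either direction, and black dots mark adjusted p under 0.05; Cyp28d1, Cyp6a14 and Cyp4p1 carry a dot in every column, and their Rrp4 values change sign with the values as deposited.

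Cyp4p1, Cyp28d1 and Cyp6a14 were lower in each of the 9 depletions, though their Rrp4 values alone turned positive with the values as deposited (0.40, 0.94 and 0.33). Cyp4p1, of the CYP4 clan, had log2 signals of 5.57 to 7.42 (median 6.27) on the 20 depletion arrays, against 8.42 and 8.80 on the GFP arrays. All depletion arrays lay below both GFP arrays. Over all depletions the log2 fold change was -2.32 ± 0.21 (SE from the fit, adjusted p = 4.04e-07), a level 4.98-fold lower. By depletion it was between -2.89 in Mtr3 and -1.30 in Rrp4. Cyp28d1, a CYP3 clan gene known to be induced by nicotine in the diet, had signals of 5.85 to 8.47 (median 7.04) on depletion arrays, against 9.09 and 8.78 on GFP arrays. Its groups did not overlap either, and the log2 fold change was -1.99 ± 0.19 (adjusted p = 7.75e-07), with -2.97 in Ski6 and -0.72 in Rrp4 at the ends. The Rrp4 value did not pass the test without GFP array 1 (-0.56, adjusted p = 0.23), Rrp4 array 2 (-0.62, adjusted p = 0.069) or Rrp4 array 4 (-0.67, adjusted p = 0.060), nor did the Rrp47 value of -1.18 without Rrp47 array 2 (-0.99, adjusted p = 0.053). Cyp6a14 had signals of 5.27 to 6.48 (median 5.97) on depletion arrays, against 7.48 and 7.21 on GFP arrays, again without overlap. Cyp6a14 changed by a log2 fold change of -1.42 ± 0.23 (adjusted p = 0.000223), between -1.81 in Mtr3 and -1.02 in Csl4. Of its 9 calls, those in Csl4, Dis3, Rrp6 and Rrp47 were lost without GFP array 1 (adjusted p = 0.14, 0.076, 0.065 and 0.12), those in Csl4 and Rrp47 without GFP array 2 (0.054 and 0.051), and those in Csl4, Rrp40, Dis3 and Rrp47 also without an array of their own (0.052 to 0.18).

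In the RefSeq gene table (assembly Release 6 plus ISO1 MT), each of these genes has a P450 neighbour above the signal line. Cyp28d2, next to Cyp28d1, had signals of 3.25 to 5.89 on depletion arrays, against 4.73 and 6.01 on GFP arrays, and its log2 fold change was -0.40 ± 0.35 (adjusted p = 0.47). Its Csl4 value of -1.67 was called lower, and was lost without GFP array 2 (-1.02, adjusted p = 0.22) or Csl4 array 1 (-1.22, adjusted p = 0.13). Cyp4p2, next to Cyp4p1, had -0.82 ± 0.42 (adjusted p = 0.18), with signals of 2.25 to 5.78 against 6.01 and 5.23. Cyp6a13, the neighbour of Cyp6a14 beyond a pseudogene, had 0.74 ± 0.38 (adjusted p = 0.19), with signals of 3.01 to 5.60 against 4.06 and 4.22. Cyp4p2 lay below both GFP arrays on 18 of 20 depletion arrays, Cyp6a13 lay above both on 18 of 20, and Cyp28d2 lay below both on 6. In each of the 3 some depletion arrays were within the GFP range, and all 3 lay nearer to the signal line than the called genes. The difference between a gene and its neighbour was not tested. The array has 1 probe set for each of these genes, and how far it reads the other copies is not given in the sources used here.

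**Figure D3:**
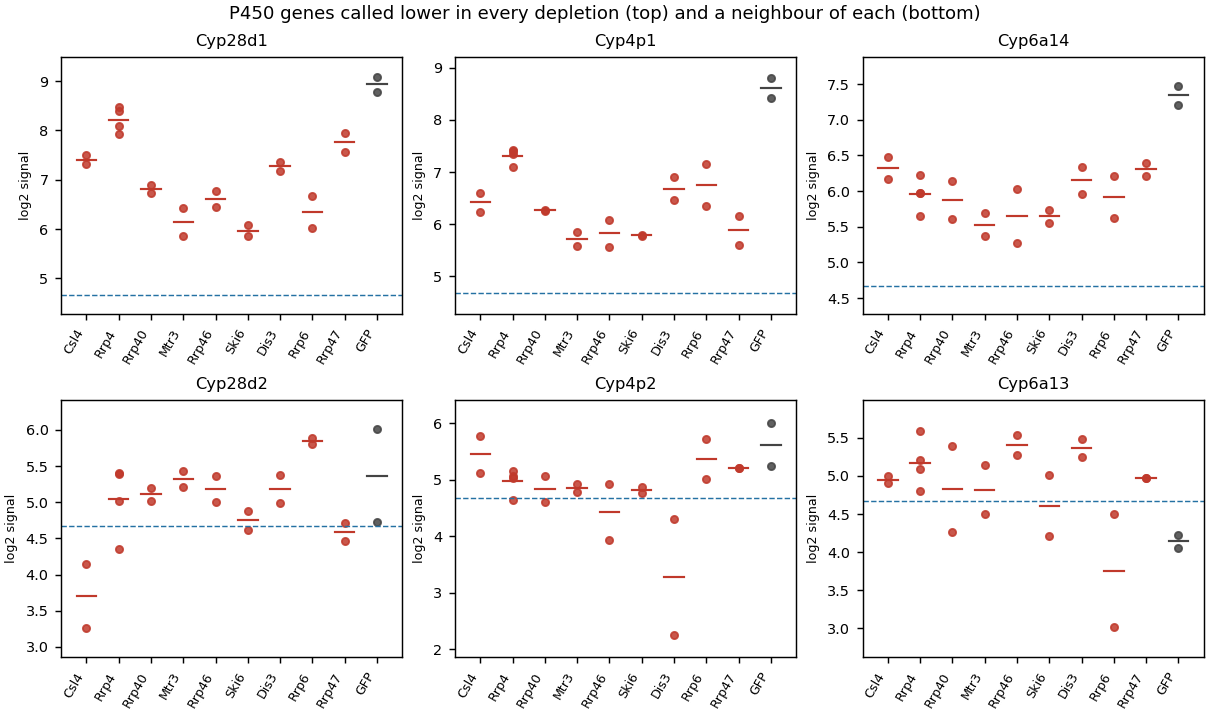
Log2 signal by array (points) and group mean (bars) for Cyp28d1, Cyp4p1 and Cyp6a14 in the top row and for Cyp28d2, Cyp4p2 and Cyp6a13, a neighbour of each, in the bottom row. Depletions are red, GFP is grey at the right, and the dashed line is the signal line; in the top row every red point lies below both grey points, a difference that for Rrp4 changes sign with the values as deposited.

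The longest run of neighbouring P450 genes in the table holds 9 genes of the CYP3 clan, in the order Cyp6a22, Cyp6a17, Cyp6a23, Cyp6a19, Cyp6a9, Cyp6a20, Cyp6a21, Cyp6a8 and Cyp317a1. Of these, 7 were tested: 5 were lower over all depletions, Cyp6a22 was higher, and Cyp317a1 did not pass the test. Over all probe sets tested, 10.3% were lower and 11.6% higher. How far each probe set reads the other copies of the run is not given in the sources used here, so these calls may not be separate results. Cyp6a20, known for its effect on aggression between males, had signals of 8.66 to 10.98 (median 9.79) on depletion arrays, against 10.93 and 11.46 on GFP arrays. On 19 of 20 depletion arrays it lay below both GFP arrays, and the log2 fold change was -1.63 ± 0.22 (adjusted p = 4.64e-05). Rrp46 (-0.83) and Rrp6 (-0.80) did not pass for this gene. Cyp6a9 had signals of 4.63 to 7.66 (median 6.00), against 7.57 and 7.61 in GFP, and a log2 fold change of -1.61 ± 0.25 (adjusted p = 0.000138). Cyp6a17, a gene of temperature preference, had 7.74 to 10.25 (median 8.61), against 9.77 and 10.43 in GFP, and a log2 fold change of -1.27 ± 0.23 (adjusted p = 0.000723). All 4 of its Rrp4 arrays (10.03 to 10.25) lay between the GFP arrays. Cyp6a8, which is known to hydroxylate lauric acid, had 6.69 to 8.43 (median 7.43), against 8.36 and 8.48, and -0.90 ± 0.19 (adjusted p = 0.00211).

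Cyp6a23 and Cyp6a22 moved both ways across depletions. Cyp6a23 had signals of 8.93, 9.03, 9.17 and 9.04 on the Rrp4 arrays and 6.57 and 6.64 on the Ski6 arrays, against 8.56 and 8.15 on the GFP arrays. The Rrp4 arrays were above both GFP arrays and the Ski6 arrays below both. Its log2 fold change was 0.69 ± 0.23 in Rrp4 (adjusted p = 0.0379) and -1.75 ± 0.26 in Ski6 (adjusted p = 0.000116), and it was also called lower in Csl4, Mtr3, Dis3 and Rrp6. The Rrp4 call was lost without any 1 of its arrays or of the GFP arrays (0.48 without GFP array 2, adjusted p = 0.26), and those in Csl4 (-0.66, adjusted p = 0.20) and Dis3 (-0.61, adjusted p = 0.23) without GFP array 1, or without Csl4 array 2 (-0.72) or Dis3 array 2 (-0.66). The Rrp6 value of -1.51 was -0.97 without Rrp6 array 2 (adjusted p = 0.021). Over all depletions it was -0.72 ± 0.20 (adjusted p = 0.0137), and -0.51 without GFP array 1 (adjusted p = 0.27). Cyp6a22, the first gene of the run, had signals of 4.63 and 4.46 in Rrp6 and 5.60 and 5.39 in Ski6, against 5.65 and 5.47 in GFP. On the other 16 depletion arrays it was at 5.84 to 6.86, above both GFP arrays. It was higher in 6 depletions, by a log2 fold change of 0.89 (Dis3) to 1.16 (Rrp4), and lower in Rrp6 (-1.02 ± 0.21, adjusted p = 0.00639), and these 7 calls held when any single array was left out. Its mean over all depletions was 0.62 ± 0.16 (adjusted p = 0.00962), which did not pass without GFP array 2 (0.53, adjusted p = 0.11) or without the 4 Rrp4 arrays (0.55, adjusted p = 0.052). Cyp317a1, the last gene of the run, ranged from 1.69 to 6.24 on depletion arrays, against 2.84 and 6.06 in GFP, and no difference was detectable over that spread (0.38 ± 0.84, adjusted p = 0.80). The table gives Cyp6a19 and Cyp6a21 within this run, and both lay below the signal line.

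**Figure D4:**
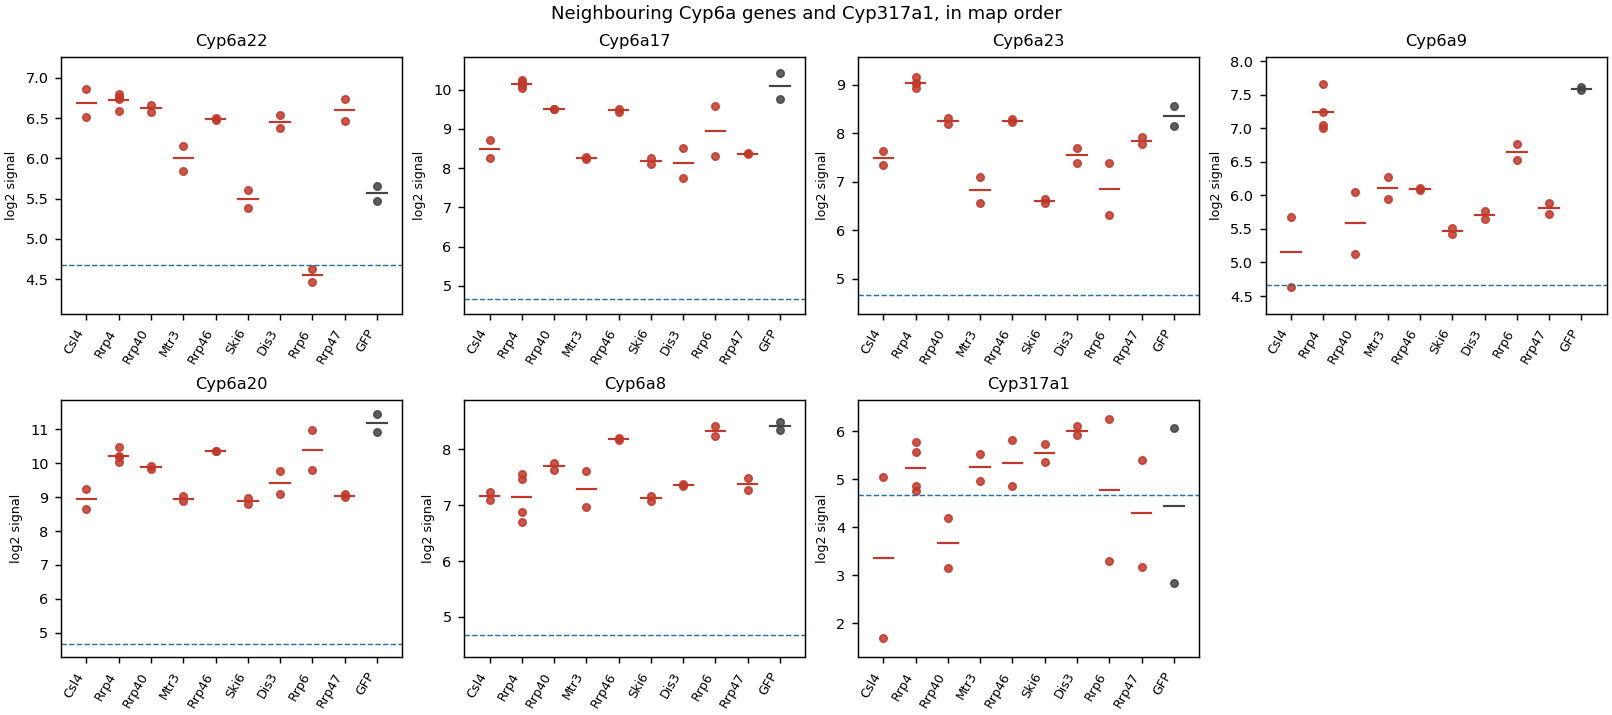
Log2 signal by array (points) and group mean (bars) for the 7 tested genes of the Cyp6a run, panels in map order. Depletions are red, GFP is grey at the right and the dashed line is the signal line; Cyp6a17, Cyp6a23 and Cyp6a9 have their highest depletion means in Rrp4, Cyp6a22 its lowest in Rrp6, and with the values as deposited the Rrp4 difference of Cyp6a20 and Cyp6a8 changes sign.

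Elsewhere in the CYP3 clan, Cyp6d2 was higher in both exonuclease depletions and Cyp6d4 in Rrp6 and Rrp46. Cyp6d2, known for survival of flies fed the topoisomerase poison camptothecin, had signals of 7.84 and 8.42 in Dis3 and 8.35 and 10.02 in Rrp6, against 5.35 and 3.31 in GFP. On all 16 other depletion arrays it was at 3.67 to 6.79, below each of these 4 arrays. The log2 fold change was 4.85 ± 0.69 in Rrp6 (adjusted p = 0.000247) and 3.80 ± 0.69 in Dis3 (adjusted p = 0.000827), and both calls held when any single array was left out. The GFP arrays lay on both sides of the signal line, so the sizes depend on them. In the other 7 depletions it did not pass the test, and the call over all depletions (1.69 ± 0.51, adjusted p = 0.0246) was lost without GFP array 2 (0.67, adjusted p = 0.52) and stood at 2.71 without GFP array 1. Cyp6d4 had signals of 9.44 and 8.92 in Rrp6 and 8.48 and 8.48 in Rrp46, against 7.35 and 7.31 in GFP. The change was 1.85 ± 0.21 in Rrp6 (adjusted p = 3.64e-05) and 1.15 ± 0.21 in Rrp46 (adjusted p = 0.00113), and no other depletion passed. Over all depletions it was 0.52 ± 0.16 (adjusted p = 0.0258), lost without either GFP array (adjusted p = 0.15 without each). The third gene of this subfamily, Cyp6d5, did not pass the test (0.68 ± 0.61, adjusted p = 0.48) with signals of 3.40 and 6.60 in GFP. Without GFP array 2 its value was 2.29 (adjusted p = 0.024).

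Cyp6t1 had signals of 4.13 to 5.88 (median 4.94) on depletion arrays, against 3.19 and 4.28 in GFP, and 18 of 20 depletion arrays lay above both. Over all depletions it was higher by 1.26 ± 0.39 (adjusted p = 0.0257), and 0.72 without GFP array 1 (adjusted p = 0.42). Cyp9c1 had signals of 9.73 to 11.29 (median 10.63), against 11.03 and 11.11 in GFP, and a log2 fold change of -0.50 ± 0.12 (adjusted p = 0.00599). Its lowest values were in Ski6 (9.73 and 9.92) and Mtr3 (10.15 and 9.73), and the overall call was lost without GFP array 1 (adjusted p = 0.051) or 2 (adjusted p = 0.079). Cyp310a1 had signals of 8.50 to 9.47 (median 8.88), against 9.47 and 9.75, with 19 of 20 depletion arrays below both GFP arrays. Over all depletions it changed by -0.71 ± 0.15 (adjusted p = 0.00228), and -0.57 without GFP array 2 (adjusted p = 0.071).

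The remaining CYP3 clan members did not pass over all depletions. Cyp9f2 (-0.10 ± 0.10) and Cyp6u1 (0.01 ± 0.13) had the smallest errors. Cyp9f2 was lower in Dis3 alone among the single depletions, at 9.09 and 9.38 against 9.85 and 9.87 in GFP (-0.62 ± 0.13, adjusted p = 0.00229), a call that held when any single array was left out. Cyp6v1 had -0.38 ± 0.31, Cyp9b2 -0.16 ± 0.33, Cyp9h1 0.19 ± 0.44, Cyp6g2 0.22 ± 0.37 and Cyp6w1 -0.11 ± 0.47. These 5 averaged 4.72 to 5.87, close to the line. Cyp9h1 was at 5.67 and 6.41 in Dis3 and 5.49 and 6.54 in Rrp6, against 4.30 and 5.05 in GFP. No single depletion was called against GFP for Cyp9h1 or Cyp6g2. Against the other depletions, Cyp9h1 was called higher in Dis3 and Rrp6 and lower in Rrp4, and Cyp6g2 higher in Rrp6. Each of these calls was lost without at least 1 array.

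In the CYP4 clan, 1 of 12 tested probe sets was higher, 3 were lower and 8 did not pass over all depletions. Over all probe sets tested, 11.6% were higher and 10.3% lower. Cyp4ac2 was the higher one. Its signals were 5.62 and 3.22 in Dis3 and 2.73 and 1.89 in Rrp6, against 2.23 and 5.25 in GFP. On the 16 arrays of the other 7 depletions it was at 6.42 to 7.90, above the Dis3, Rrp6 and GFP arrays. The log2 fold change in those 7 depletions was 2.95 (Rrp47) to 3.88 (Rrp4), and over all depletions 2.56 ± 0.54 (adjusted p = 0.00206). The GFP arrays lay far apart, on both sides of the signal line, and the sizes moved with them. Over all depletions the value was 1.05 without GFP array 1 (adjusted p = 0.24) and 4.07 without GFP array 2. Without GFP array 1 the calls in Rrp4 (2.37), Rrp40 (2.17) and Rrp46 (2.19) stayed and those in Csl4 (1.5, adjusted p = 0.13), Mtr3 (1.77, adjusted p = 0.084), Ski6 (1.78, adjusted p = 0.075) and Rrp47 (1.44, adjusted p = 0.13) did not. The Rrp47 call was also lost without Rrp47 array 2 (adjusted p = 0.053). Without GFP array 2 the Csl4 and Rrp47 values were 4.52 and 4.46. Its neighbour Cyp4ac3 did not pass over all depletions (0.23 ± 0.30, adjusted p = 0.65) and was called in no single depletion against GFP. Its means differed among depletions, from 4.48 in Rrp6 to 6.24 in Rrp40 (limma F test, adjusted p = 0.026). Against the other depletions it was called lower in Rrp6, a call lost without at least 1 array. Cyp4ac1 lay below the line.

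Besides Cyp4p1, the lower genes of the CYP4 clan were Cyp4g1 and Cyp4e2. Cyp4g1, the decarbonylase that makes cuticular hydrocarbons in oenocytes, had signals of 4.56 to 6.78 (median 5.61) on depletion arrays, against 6.33 and 6.82 in GFP. Its log2 fold change was -1.04 ± 0.26 (adjusted p = 0.00829), and -0.79 without GFP array 2 (adjusted p = 0.16). Cyp4e2 had 7.88 to 9.68 (median 8.68), against 9.39 and 9.73, and -0.93 ± 0.14 (adjusted p = 0.000104). On 17 of 20 depletion arrays it lay below both GFP arrays, with Ski6 lowest at 7.88 and 7.93. Cyp4c3 was at 3.21 and 4.20 in Rrp46 and 6.37 and 6.45 in Csl4, against 5.62 and 5.99 in GFP (-0.99 ± 0.41 over all depletions, adjusted p = 0.093). It was called lower in Rrp46 (-2.10), Ski6 (-1.86) and Rrp6 (-1.94), and each call was lost without GFP array 2 (-1.91, -1.67 and -1.75, with adjusted p = 0.065, 0.095 and 0.14) and without an array of its own. Leaving out Rrp6 array 2 or Rrp46 array 1 gave -1.32 and -1.60. Cyp4ad1 had -0.33 ± 0.28 and was called in Rrp40 (-1.37), where it was lost without GFP array 2 (-1.24, adjusted p = 0.079) or Rrp40 array 1 (-1.19, adjusted p = 0.13). The other 4 tested members were called in no depletion, with 0.30 ± 0.20 for Cyp4d2, 0.07 ± 0.34 for Cyp4d14, -0.02 ± 0.44 for Cyp4ae1 and 0.34 ± 0.33 for Cyp313b1. For Cyp4p2 the lowest signals were in Dis3, at 2.25 and 4.31, and that call (-2.34 ± 0.56, adjusted p = 0.00643) was lost without GFP array 1 (-1.96, adjusted p = 0.069) or Dis3 array 1 (-1.32, adjusted p = 0.087).

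In the mitochondrial clan, the neighbours Cyp12a4 and Cyp12a5 were higher in most depletions but not in Rrp6. Cyp12a4, a gene linked to resistance to the insecticide lufenuron, had signals of 7.75 and 7.53 in Rrp6, against 7.89 and 8.37 in GFP. On the 18 arrays of the other 8 depletions it was at 9.17 to 10.26, above both GFP arrays without overlap. The log2 fold change in these 8 was 1.13 (Dis3) to 2.02 (Rrp40), each called and each held when any single array was left out, and -0.49 ± 0.18 in Rrp6 (adjusted p = 0.12). Over all depletions it was 1.40 ± 0.14 (adjusted p = 1.11e-06), a level 2.64-fold higher, and of the 7 higher calls this alone held when any single array was left out. Cyp12a5 had signals of 7.05 and 6.25 in Rrp6 and 8.26 and 7.47 in Dis3, against 7.25 and 8.05 in GFP. On the other 16 depletion arrays it was at 8.30 to 9.83, above both GFP arrays. Its log2 fold change was 1.10 (Csl4) to 1.96 (Rrp40) in the 6 depletions where it was called higher, and -1.0 ± 0.29 in Rrp6 (adjusted p = 0.0406). The calls in Csl4 and Ski6 were lost without GFP array 1 (0.70, adjusted p = 0.17, and 0.96, adjusted p = 0.061), the Csl4 call also without Csl4 array 1 (1.00, adjusted p = 0.064), and the Rrp6 call without GFP array 2 (-0.60, adjusted p = 0.32), Rrp6 array 2 (-0.60, adjusted p = 0.34) or 1 of several arrays of other groups (adjusted p near 0.05). Over all depletions it was 0.98 ± 0.22 (adjusted p = 0.00305), and 0.58 without GFP array 1 (adjusted p = 0.20).

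Cyp12c1 did not pass over all depletions (0.25 ± 0.13, adjusted p = 0.22) but was called in 5 of them. It had signals of 8.09 and 7.73 in Ski6, 8.0 and 7.70 in Mtr3, 7.72 and 7.98 in Rrp6, 7.67 and 7.74 in Csl4 and 6.42 and 6.59 in Rrp40, against 7.10 and 7.07 in GFP. The first 4 depletions lay above both GFP arrays and Rrp40 below both. None of the 5 calls held when any single array was left out, since each was lost without an array of its own group (adjusted p of 0.051 to 0.20). Cyp12d1-d, a gene linked to DDT resistance, had 0.08 ± 0.15 over all depletions (adjusted p = 0.77) and was called in no single depletion. Its means differed among depletions, from 6.48 in Csl4 to 7.57 in Dis3 (limma F test, adjusted p = 0.0044). A probe set shared with its neighbour Cyp12d1-p, left out of the family, was higher over all depletions (0.97, adjusted p = 0.00126). The 2 probe sets of Cyp12e1 had -0.44 ± 0.27 and -0.52 ± 0.29, with the same sign over all depletions and neither called. Each was called lower in 1 depletion, the first in Dis3 (-1.08) and the second in Rrp47 (-1.27). Both calls were lost without GFP array 2 (-0.69, adjusted p = 0.31, and -0.81, adjusted p = 0.27) and without an array of their own, the first falling to -0.60 without Dis3 array 2.

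**Figure D5:**
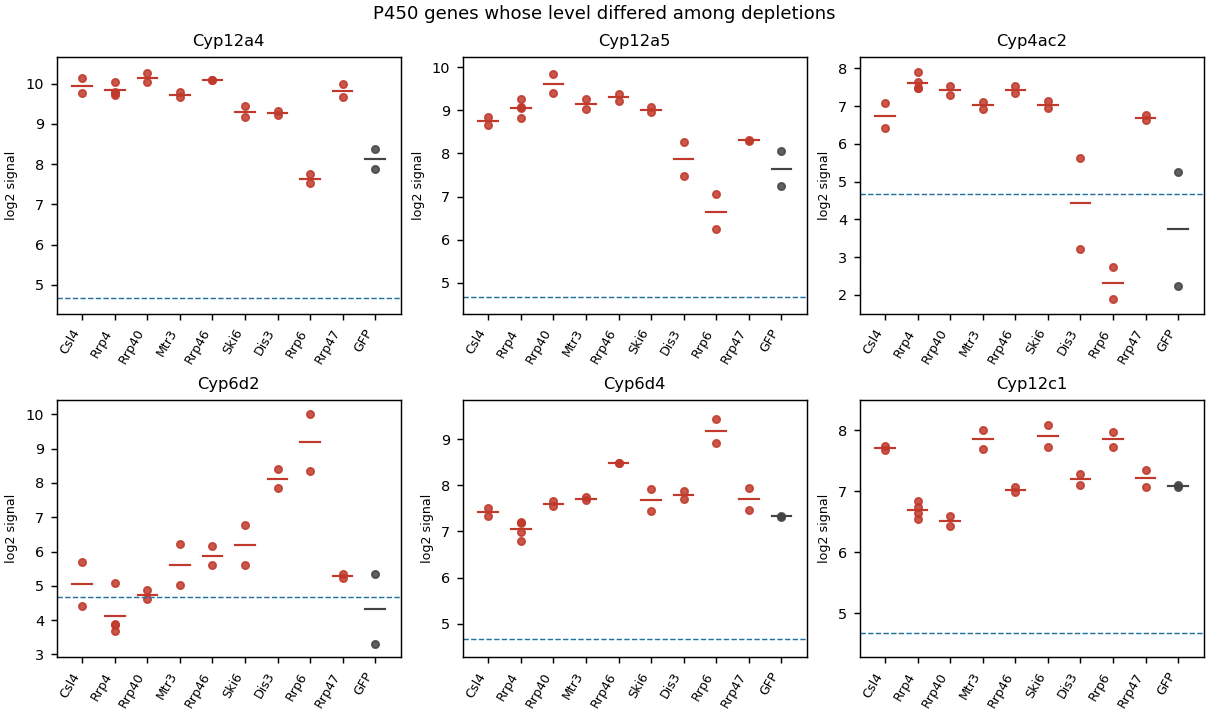
Log2 signal by array (points) and group mean (bars) for Cyp12a4, Cyp12a5, Cyp4ac2, Cyp6d2, Cyp6d4 and Cyp12c1. Depletions are red, GFP is grey at the right and the dashed line is the signal line; Rrp6 has the lowest depletion mean of Cyp12a4, Cyp12a5 and Cyp4ac2 and the highest of Cyp6d2 and Cyp6d4, and with the values as deposited Cyp6d4 and Cyp12c1 in Rrp4 change sign against the other depletions.

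In the CYP2 clan, 2 probe sets were tested and neither passed over all depletions. Cyp18a1, the enzyme that inactivates ecdysone, had signals of 4.05 to 5.98 (median 5.42) on depletion arrays, against 6.01 and 5.88 in GFP, and 18 of 20 depletion arrays lay below both. Its log2 fold change was -0.57 ± 0.28 (adjusted p = 0.16). It was called lower in Rrp40 (-1.25), where its arrays were at 5.34 and 4.05, a call lost without Rrp40 array 2 (-0.61, adjusted p = 0.32) or either GFP array, and -1.90 without Rrp40 array 1. A second probe set of Cyp18a1 lay below the line. Cyp304a1 had 0.43 ± 0.44 (adjusted p = 0.54).

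By depletion, P450 probe sets were called higher and lower in the following numbers, set beside the share of all probe sets called the same way. Csl4 had 5 higher and 11 lower of 44 (11.4% and 25%, beside 9.18% and 9.38%). Rrp4 had 5 and 6 (11.4% and 13.6%, beside 12.5% and 11.3%). Rrp40 had 4 and 9 (9.09% and 20.5%, beside 10.9% and 9.44%). In none of these were the higher calls far from the background. Mtr3 had 5 and 11 (11.4% and 25%, beside 10% and 8.85%). Rrp46 had 5 and 7 (11.4% and 15.9%, beside 10.5% and 9.25%). Ski6 had 5 and 13 (11.4% and 29.5%, beside 12% and 10.8%). Differences in these counts between depletions were not tested. Dis3 had 4 and 14 (9.09% and 31.8%, beside 11% and 10.2%). Rrp6 had 3 and 9 (6.82% and 20.5%, beside 4.27% and 4.55%). Rrp47 had 3 and 10 (6.82% and 22.7%, beside 10.3% and 10.2%). Over the 9 depletions there were 39 higher and 90 lower calls, of which 25 and 56 held when any single array was left out. The share of calls that held was not computed over all probe sets. Many calls are of the same probe set against the same GFP arrays, so they are not separate results. With the values as deposited, Rrp4 had 37 higher calls and none lower, while the median of all probe sets there was 1.58. Of the 44 probe sets, 28 were called in at least 1 depletion, 16 in none, and 4 in both directions (Cyp6a22, Cyp6a23, Cyp12a5 and Cyp12c1). The matching shares over all probe sets were not computed, so whether these counts are unusual is not known.

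An F test of whether the 9 depletion means were equal passed for 26 of the 44 probe sets (59.1%), beside 57.7% of all probe sets tested. The share is near the background. Rrp6, Dis3 and Rrp4 were then each compared with the mean of the other 8 depletions. The differences do not use the GFP arrays, which still enter the normalization and the spread of the fit. For Rrp6, 12 P450 probe sets were higher and 8 lower (27.3% and 18.2%), beside 12% and 13.5% of all probe sets. The largest were Cyp4ac2 (-4.49 ± 0.54), Cyp6d2 (3.56 ± 0.52), Cyp12a5 (-2.23 ± 0.22), Cyp12a4 (-2.13 ± 0.14), Cyp6a22 (-1.84 ± 0.16) and Cyp6d4 (1.5 ± 0.16), and these 6 held when any single array was left out, as did Cyp6a8 (0.92) and Cyp9c1 (0.71). The other 12 were lost without at least 1 array, and without Rrp6 array 2 the 20 calls became 13. For Dis3, 3 were higher and 6 lower (6.82% and 13.6%), beside 9.72% and 9.55%. Cyp9f2 (-0.59 ± 0.10) alone held when any single array was left out, and without Dis3 array 2 the 9 calls became 2. Cyp6d2 stood 2.37 above the other depletions in Dis3 (adjusted p = 0.00411), and 2.09 without Dis3 array 2 (adjusted p = 0.098).

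For Rrp4 against the other 8 depletions, 14 P450 probe sets were higher and 5 lower (31.8% and 11.4%), beside 17.8% and 18.2% of all probe sets. Among the higher ones were genes that were lower than GFP in most depletions: Cyp6a23 (1.58 ± 0.15), Cyp6a17 (1.48 ± 0.18), Cyp28d1 (1.43 ± 0.14), Cyp6a9 (1.42 ± 0.19), Cyp4p1 (1.15 ± 0.16) and Cyp4e2 (0.93 ± 0.10). These 6 held when any single array was left out and with either pair of Rrp4 arrays (1 and 2, or 3 and 4) alone. The lower ones were Cyp6d2 (-2.13), Cyp9h1 (-0.97), Cyp6d4 (-0.90), Cyp12c1 (-0.72) and Cyp6a8 (-0.42), of which Cyp9h1, Cyp6d4, Cyp12c1 and Cyp6a8 changed sign with the values as deposited. Since these arrays were also the ones scaled apart, depletion and batch cannot be told apart here.

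Other genes of the same pathways were read as lists, each gene by its brightest probe set over all arrays. Their counts stand beside 11.6% higher and 10.3% lower over all probe sets tested, which were not limited to 1 per gene. Of the ecdysone synthesis P450s with other symbols (phtm, dib, sad, shd, spo and spok), shd, the enzyme of the last step, was the 1 of 6 above the line (-0.73 ± 0.31, adjusted p = 0.11), and nvd and sro, other genes of that pathway, lay below it. Of 8 electron donors and partners listed, 6 were found on the array by symbol. Cpr, the P450 reductase, and dare were not found, so their levels are not known here. Of the 6, 4 were tested and 3 were lower: Fdx2 (-0.63 ± 0.12, adjusted p = 0.000935), Fdx1 (-0.36 ± 0.11, adjusted p = 0.0291) and Cyt-b5 (-0.33 ± 0.09, adjusted p = 0.0146). Fdx1 and Fdx2 encode mitochondrial ferredoxins and Cyt-b5 encodes cytochrome b5. The Fdx1 call was lost without GFP array 2 (-0.23, adjusted p = 0.34) and changed sign with the values as deposited, and the Cyt-b5 call was lost without GFP array 1 (-0.16, adjusted p = 0.44) and at -0.51 without GFP array 2. Of 11 regulators of xenobiotic and hormone response, 10 were tested, 3 were lower and none higher. cnc, the Nrf2 homolog that drives detoxification genes, had signals of 7.39 to 10.30 (median 8.88) on depletion arrays, against 9.88 and 10.29 in GFP (-1.38 ± 0.22, adjusted p = 0.000212). Its inhibitor Keap1 (-0.63 ± 0.20, adjusted p = 0.0349) and its partner maf-S (-0.44 ± 0.13, adjusted p = 0.0175) were lower too, both lost without GFP array 1 (-0.39, adjusted p = 0.43, and -0.32, adjusted p = 0.28). Hr96, a nuclear receptor of xenobiotics, had -0.33 ± 0.13 (adjusted p = 0.095). Of 35 UDP-glycosyltransferases, which conjugate P450 products, 9 were tested, 2 were higher (Ugt36D1 at 1.66 ± 0.24 and Ugt317A1 at 0.47 ± 0.10) and 2 lower (Ugt302C1 at -0.69 ± 0.20 and Ugt316A1 at -0.29 ± 0.09). Ugt36D1 stood at 0.89 without GFP array 1 (adjusted p = 0.0045). Without GFP array 2 the calls of Ugt302C1 (-0.43, adjusted p = 0.32) and Ugt316A1 (-0.18, adjusted p = 0.35) were lost, and Ugt316A1 changed sign with the values as deposited.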

How the data were processed

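Biotin-labelled cRNA from total RNA of S2 cells was hybridised to 22 one-colour Affymetrix arrays. The authors deposited 1 intensity per probe set and array on a linear scale, made with GCOS per the submitters' processing notes; its version and scaling settings are not given in the sources used here. Intensities below come from those deposited values. After 183 control probe sets (0.966% of 18952) were left out, arrays were quantile normalized, because trimmed means differed, and values were floored at the 10th percentile (3.234) and taken as log2. Probe sets with a mean at or above the 50th percentile (9385) were tested. A model with 10 group means was fitted with limma 3.58.1 (lmFit, eBayes with an intensity trend, two-sided) in R 4.3.3, with 12 residual degrees of freedom. All groups share 1 spread per probe set. The comparison over all depletions sets the mean of 9 group means against GFP. The pipeline was tested on simulated data. The number of arrays limits the precision.

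Symbols came from GEO's platform annotation, updated through gene IDs in the RefSeq table: 13647 probe sets had 1 symbol, 402 several and 4720 none. Every tested P450 was to be named, with members below the line that had every array of a group above it, the 3 brightest of the rest, and called genes of the pathway lists. Genes of the pathway lists and tissue markers were each read by their brightest probe set with 1 symbol, and their other probe sets were not read. Clans follow the family number. Members, lists and tests were chosen with earlier results of these data known. Alternatives changed the scaling, floor, filter, pseudocount, trend, array weights, replicate block and arrays used.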

Additional observations from a re-analysis of the deposited data

Results flagged for a closer look

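Within the 4 Rrp4 arrays, 1 array stood apart from the other 3 for 2 of 44 probe sets. The gap to the nearest array, as a share of the group's range, was 0.857 for Cyp6d2, where Rrp4 array 3 was at 5.09 and the others at 3.67 to 3.87, and 0.909 for Cyp4ac3, where Rrp4 array 2 was at 4.96 and the others at 5.35 to 5.39. Both are above Dixon's critical value for 4 arrays, and chance flags about 1 in 20 groups.

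The means of the 9 depletions differed for 26 probe sets (limma F test). The test includes the Rrp4 arrays, for which depletion and batch cannot be told apart. The adjusted p was 5.3e-07 for Cyp12a4, 4.5e-06 for Cyp6a23, 4.7e-06 for Cyp6a22, 5.7e-06 for Cyp28d1, 1.1e-05 for Cyp4e2, 1.3e-05 for Cyp6d4, 1.4e-05 for Cyp12a5 and 1.6e-05 for Cyp12c1. It was 7.5e-05 for Cyp6a17, 8.8e-05 for Cyp9c1, 0.00015 for Cyp4ac2, 0.00015 for Cyp6d2, 0.00037 for Cyp6a9, 4e-04 for Cyp6a20 and 4e-04 for Cyp4p1. For Cyp6a8 it was 0.0024, for Cyp9f2 0.0037, for Cyp12d1-d 0.0044, for Cyp4c3 0.0045, for Cyp4g1 0.0046 and for Cyp310a1 0.0065. The weakest were Cyp9h1 (0.025), Cyp4ac3 (0.026), Cyp4d14 (0.027), Cyp4ad1 (0.035) and Cyp28d2 (0.039). Since 57.7% of all probe sets passed this test, the count over the P450s is near the background.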

How the results depend on the processing

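With the line and means recomputed without each single array, 44 P450 probe sets lay above the line each time, and without Csl4 2, Dis3 2 and Rrp6 2, an alternative chosen after seeing the data, 42 did. The fits that left out arrays kept the probe sets chosen on all arrays. Of the 29 genes called over all depletions (19 P450s and 10 of the related genes), 10 stayed called under every alternative in which they were tested. With the values as deposited, higher and lower calls were 13 and 6 against 7 and 12, Rrp4 had 37 calls against 11, Rrp4 against the other depletions 42 against 19, Dis3 against the others 30 against 9, and the F test 41 against 26. With the filter at the 75th percentile, which leaves 9 P450s tested, higher and lower calls were 2 and 5, there were 7 calls each in Mtr3 and Ski6, 6 each in Csl4 and Dis3, 5 each in Rrp40 and Rrp46, 4 each in Rrp4 and Rrp47 and 3 in Rrp6, those against the others 6 (Rrp4), 4 (Dis3) and 5 (Rrp6), and the F test 8. With array weights there were 3 higher calls, 10 in Csl4, 9 in Dis3, 5 in Rrp6, 1 for Dis3 and 7 for Rrp6 against the others, and 6 related genes against 10. With only the depletion and GFP arrays in the fit, calls were 8 in Csl4, 7 in Dis3 and 2 in Rrp6. Median centring gave 13 for Rrp6 against the others. Without Rrp4 arrays 1 and 2, Rrp4 had 7 calls, and 12 against the others, which was 10 without arrays 3 and 4. Without Csl4 2, Dis3 2 and Rrp6 2, Rrp46 had 19 calls against 12, and Dis3 against the others 4.

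Leaving out single arrays gave 3 (without GFP 1) to 7 higher and 9 to 12 lower calls over all depletions, 7 (without GFP 2) to 14 calls in Rrp6 against 12, 2 (without Dis3 2) to 11 for Dis3 against the others, and 13 (without Rrp6 2) to 20 for Rrp6 against the others. The replicate numbers did not pair the arrays over the groups as a whole. The correlation of same-numbered deviations was over 0.1 in 4 of 45 pairs of groups (range -0.348 to 0.411, median -0.024). Whether some groups were paired was not tested. The replicate block gave 10 calls for Rrp4 against the others against 19, and over all depletions 6 higher and 12 lower. Replicate numbers 3 and 4 occur only in Rrp4, so the block fitted those arrays exactly and left them no say. Leaving out Rrp4 arrays 3 and 4 likewise gave 10, so this drop cannot be read as an effect of pairing.

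Of 206 called values, 19 changed sign, all with the values as deposited. In Rrp4 against GFP these were Cyp6a20 (0.54), Cyp28d1 (0.94), Cyp6a14 (0.33), Cyp4p1 (0.40), Cyp6a8 (0.43) and Cyp9c1 (1.09). In Mtr3 it was Cyp6a8 (0.011), and in Ski6 Cyp310a1 (0.13) and Cyp4g1 (0.062). Against the other depletions these were Cyp9h1 (0.24), Cyp12c1 (0.58), Cyp6d4 (0.40) and Cyp6a8 (0.88) for Rrp4, Cyp12d1-d (-0.23) for Dis3, and Cyp12c1 (-0.24), Cyp4e2 (-0.32) and Cyp6a9 (-0.090) for Rrp6. Over all depletions these were Fdx1 (0.13) and Ugt316A1 (0.15). Deposited values keep each array's own scale, and the median over all probe sets shifted by -0.19 (Dis3) to 1.58 (Rrp4) against GFP. Causes of the other changes were not tested.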

Other observations

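Of the symbols taken by the rule, the cyclophilins Cyp1 and Cyp40 did not pass over all depletions (-0.10 ± 0.08, adjusted p = 0.43, and -0.32 ± 0.16, adjusted p = 0.17). There were 2 Cyp probe sets with several symbols, which were left out of the family. The probe set shared by Cyp12d1-d and Cyp12d1-p, neighbouring copies of a mitochondrial P450, was higher over all depletions by a log2 fold change of 0.97 (adjusted p = 0.00126), while the probe set of Cyp12d1-d alone had 0.08 ± 0.15 (adjusted p = 0.77). The one shared by Cyp6v1 and shn had 0.29 (adjusted p = 0.28).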
